A study of Homo sapiens with 6 samples.

Results

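Expression of ATF4 and 9 genes of the integrated stress response was compared between KYSE70 and NRF2null-KYSE70 cells. The 10 genes were ATF4, ATF3, ATF5, DDIT3, DDIT4, ASNS, TRIB3, SESN2, CHAC1 and PPP1R15A, each taken by its symbol from the 58884 genes of the RNA-seq table, in which each symbol stood once. KYSE70 is an established human line of esophageal squamous cell carcinoma (ESCC) with a mutant NFE2L2, the gene for the transcription factor NRF2. NRF2null-KYSE70 was grown from a single KYSE70 cell after CRISPR-Cas9 cutting of NFE2L2 in exon 2, and the study still detected a faint, shorter NRF2 protein in it. Cells of both lines were untreated and grown in the same serum-containing medium, with 3 libraries per line. Since all NRF2null-KYSE70 libraries came from 1 clone, a difference between the groups was a difference between this clone and its parent.

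The integrated stress response begins with kinases that sense amino acid shortage, unfolded protein in the endoplasmic reticulum (ER), double-stranded RNA or heme deficiency and phosphorylate the initiation factor eIF2. General translation then falls, whereas the ATF4 mRNA is translated more, so ATF4 is controlled largely at the protein level and its mRNA is only one part of the response. ATF4 protein turns on genes of amino acid synthesis and uptake, tRNA charging, redox balance and feedback, and in prolonged stress its partner CHOP, the product of DDIT3, can favor cell death.

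RNA was sequenced to between 52072801 and 63975313 reads assigned to genes per library, and the values are normalized counts (gene reads scaled by a size factor of the library). NFE2L2, the targeted gene, had 9839, 9906 and 10039.8 normalized counts in KYSE70 and 5803, 6041 and 6434 in NRF2null-KYSE70, so its RNA was lower in the clone and still abundant. All 11 markers chosen for squamous epithelium were expressed, KRT14 only at means of 46.4 in KYSE70 and 156 in NRF2null-KYSE70. The summed level of the 11 markers was 363776 to 369931 in KYSE70 and 274412 to 285903 in NRF2null-KYSE70. Of them 6 were lower and 5 higher (limma adjusted p under 0.05), against 28.3% and 29.3% of all tested genes. KRT5 went from between 207890.0 and 213140.0 to between 121672 and 127862. The other 10 markers summed to 155056 to 156791 in KYSE70 and 152740.0 to 158041 in NRF2null-KYSE70, but they moved in both directions. Among them KRT6A rose from a mean of 37356 to 60323, and TP63 fell from 26341 to 13892. The median log2 fold change of the 11 markers was -0.74. In bulk RNA of a cell line, a changed share of cells with a marker and a changed amount of its RNA per cell cannot be told apart. Of the 6 fibroblast markers 2 were expressed enough to be tested, COL1A1 and COL3A1, with COL1A2 and DCN at 0, and their summed level was 1384 to 1618 normalized counts in KYSE70 and 471 to 622 in NRF2null-KYSE70. Of 4 endothelial markers only VWF was tested and KDR was at 0, with sums of 133 to 149 and 275 to 450.3. Of 5 immune markers only PTPRC was tested and MS4A1 was at 0, with sums of 0 to 10.5 and 40.2 to 47.9. Mitochondrial genes took 1.85% to 2.05% of reads in KYSE70 and 2.26% to 2.29% in NRF2null-KYSE70. The part of these differences in the results that follow was not tested.

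In NRF2null-KYSE70, 9 of the 10 genes had more RNA than in the parental line (limma, adjusted p under 0.05), and none was lower. The exception was TRIB3. The background was high, because 57.6% of the 15994 tested genes differed at this threshold in either direction with 29.3% higher and 28.3% lower. When a log2 fold change (log2FC) of 1 or more in size was also required, ASNS, CHAC1 and DDIT3 remained, 3 of 10 higher and none lower, against 7.23% of all tested genes higher and 7.43% lower. In the same 9 genes every NRF2null-KYSE70 library lay above every KYSE70 library, and in none was the order the opposite, whereas the former held for 32.1% of tested genes and the latter for 31.3%. The median log2FC of the 10 genes was 0.68, and that of all tested genes was -0.0070. Together the 10 genes took 0.118% to 0.125% of the normalized counts in KYSE70 and 0.150% to 0.163% in NRF2null-KYSE70.

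**Figure D1:**
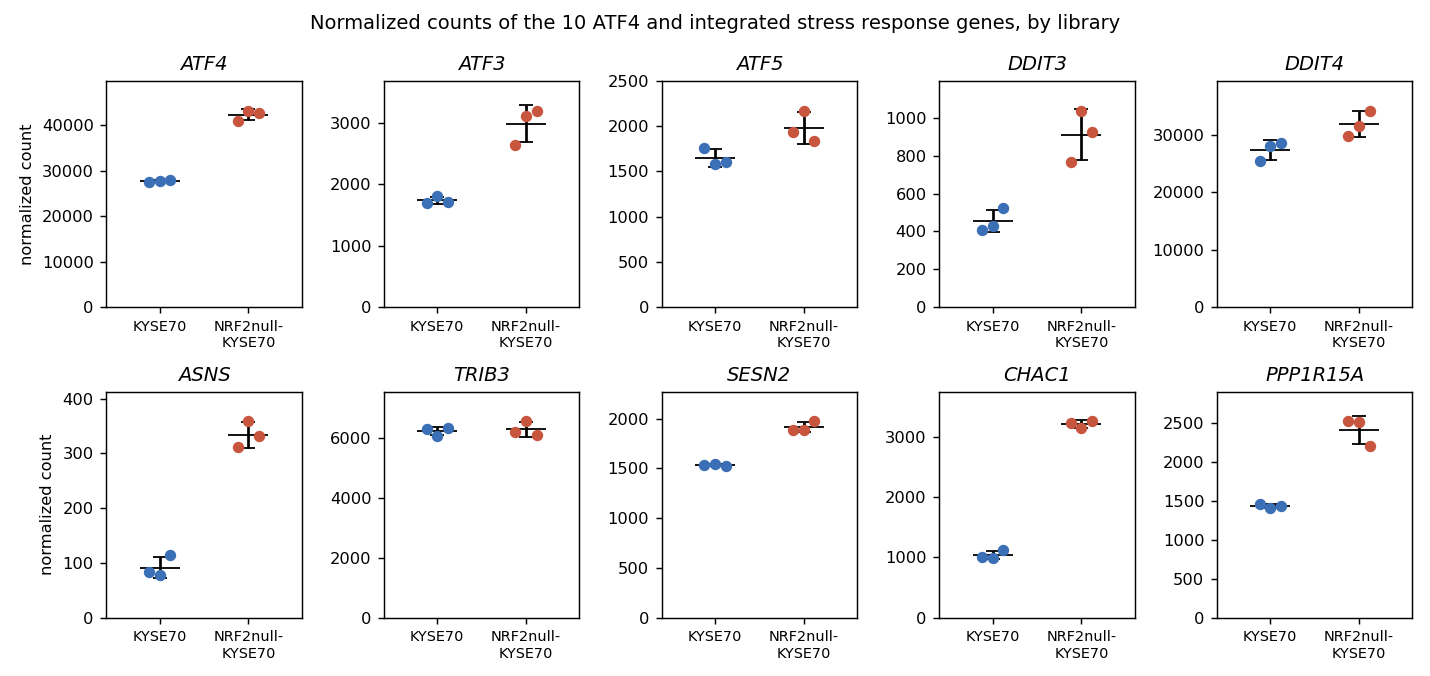
Normalized counts (vertical axes, each from 0) of the 10 genes in the 3 KYSE70 libraries (blue) and the 3 NRF2null-KYSE70 libraries (red), with the mean and SD in black. The libraries of the lines separate in every panel except TRIB3, and the gap is widest, relative to the KYSE70 level, for ASNS and CHAC1.

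ATF4, the transcription factor at the center of the response (ENSG00000128272, chromosome 22, 39519695 to 39522683 on hg38), had 27548, 27767 and 28023 normalized counts in the KYSE70 libraries and 40901, 43185 and 42714 in the NRF2null-KYSE70 libraries. Its spread within each line was small, with a coefficient of variation of 0.86% and 2.85%, and the libraries were far apart between the lines. The mean rose 1.52-fold, from 27779.5 ± 238 to 42266.5 ± 1206 (mean ± SD, 3 libraries each), with a log2FC of 0.61 (SE 0.044, limma adjusted p = 1.22e-07). The median log2FC was 0.051 over its arm, 22q, and -0.078 over the 40 nearest tested protein-coding genes.

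Among the other transcription factors, DDIT3 changed most. DDIT3 (chromosome 12, 57516588 to 57521737) had 410.0, 430.0 and 522 normalized counts in KYSE70 and 768, 1039 and 928 in NRF2null-KYSE70. The lines did not overlap, although the libraries within a line varied more than for most of these genes. The mean rose 2.01-fold, from 454 ± 59.7 to 912 ± 137 (mean ± SD, 3 libraries each), and the log2FC of 1.00 (95% interval 0.73 to 1.27, limma adjusted p = 1.85e-05) stood directly at the cut-off of 1. It fell below the cut-off when single libraries were left out, to 0.90 at the lowest, without NRF2null-KYSE70 library 2. With all libraries kept it was also below the cut-off with a pseudocount of 5 (log2FC 0.995) and with TMM scaling (0.990). On its arm, 12q, tested genes had a median of -0.38, and the 40 nearest ones had a median of -0.64. DDIT3 shares 355 exon bases with MARS1 and 58 with MBD6, both on the other strand. MARS1 itself rose 1.73-fold, whereas MBD6 fell to a mean of 1762 normalized counts from 2261. DDIT3 also shares 105 exon bases with another protein-coding gene of the same strand. Neither the use of strand in counting nor the treatment of shared reads was stated, so reads of these genes could be mixed.

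ATF3, a stress-induced factor that both follows and feeds back on ATF4, had 1695, 1805 and 1707 normalized counts in KYSE70 and 2637, 3108 and 3196 in NRF2null-KYSE70. Its lowest NRF2null-KYSE70 library was well above the highest KYSE70 library. The mean rose 1.72-fold (log2FC 0.78, SE 0.074, limma adjusted p = 1.72e-06). ATF5, the closest relative of ATF4 in this group, had 1761, 1581 and 1609 normalized counts in KYSE70 and 1936, 2175 and 1833 in NRF2null-KYSE70. The gap between the lines was narrow, 1761 against 1833 at its closest. The rise was 1.20-fold (log2FC 0.26, SE 0.075, limma adjusted p = 0.00969), and without KYSE70 library 2 or NRF2null-KYSE70 library 2 it did not pass, with limma adjusted p-values of 0.0511 and 0.0538. ATF5 shares 565 exon bases with NUP62 on the other strand, a gene that fell to 6874 ± 369.5 from 8128 ± 202 normalized counts (mean ± SD, 3 libraries each).

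Of the 3 genes past the cut-off, CHAC1 had the smallest standard error. It encodes an enzyme that breaks down glutathione and is a well-known late target of the ATF4, ATF3 and CHOP cascade. CHAC1 (chromosome 15, 40952962 to 40956512) had 1012, 992 and 1114 normalized counts in KYSE70 and 3227, 3137 and 3255 in NRF2null-KYSE70. The lines were far apart, and the libraries within each line lay close together. The mean rose 3.09-fold, from 1039 ± 65.0 to 3206 ± 61.6 (mean ± SD, 3 libraries each), with a log2FC of 1.63 (SE 0.064, limma adjusted p = 5.13e-10), and 3.86% of tested genes had a higher log2FC. The 15q arm, on which CHAC1 lies, was itself shifted to a median of 0.33. After subtraction of the median of the 40 nearest tested genes the value for CHAC1 was 1.25.

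ASNS, which makes asparagine and is a classical ATF4 target, had the largest fold change of the 10 genes. It had 82.7, 78.0 and 114 normalized counts in KYSE70 and 311, 359 and 331 in NRF2null-KYSE70. The lowest NRF2null-KYSE70 library was far above the highest KYSE70 library. The mean rose 3.65-fold, from 91.5 ± 19.5 to 334 ± 23.9 (mean ± SD, 3 libraries each), with a log2FC of 1.87 (SE 0.176, limma adjusted p = 1.41e-06). The annotation bears on these counts. ASNS (chromosome 7, 97851677 to 97872542) overlaps a non-coding gene of the same strand, AC079781.5, whose exons hold 2374 of the 2385 bases of the canonical ASNS transcript (99.5%). How reads in shared bases were counted was not stated, and AC079781.5 itself had only 14.2, 22.7 and 27.4 normalized counts in KYSE70 and 12.2, 4.90 and 9.13 in NRF2null-KYSE70. The level of ASNS is therefore uncertain, and its change rests on the reads that were assigned to it. ASNS is also listed by the study among its NRF2 targets in human ESCC, and its RNA was higher in the clone.

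Short stretches around stress-related motifs before the RefSeq start sites of CHAC1, ASNS and PPP1R15A are shown, because CHAC1 and ASNS had the largest changes and PPP1R15A was the only one of the 10 genes with a full CRE. The capitals mark the motif, each line reads 5′ to 3′ on the strand of the gene, and positions are on GRCh38.p14. The printed sites lie before a RefSeq start but inside the longer gene spans of GENCODE v44. Those spans begin at 40952962 for CHAC1, at 48872212 for PPP1R15A and, on the minus strand, at 97872542 for ASNS.
CHAC1, chr15:40953251-40953280, plus strand: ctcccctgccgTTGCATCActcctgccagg
ASNS, chr7:97872458-97872487, minus strand: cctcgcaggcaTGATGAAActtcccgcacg
PPP1R15A, chr19:48872352-48872381, plus strand: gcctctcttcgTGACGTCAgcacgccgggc

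The C/EBP-ATF response element core (TGATGCAA or TTGCATCA, both strands) was searched in the 250 bases before each RefSeq start site. It was found in 1 of the 10 genes, CHAC1, 209 bases before the RefSeq start, and in 0.967% of the 27305 genes with such a sequence. A looser core (TGATGNAA or TTNCATCA), searched after the data were seen and including the first, was found in 3 of the 10 genes, CHAC1, ASNS and ATF3, against 3.89% of genes. The CRE (TGACGTCA) was found in PPP1R15A, 58 bases before the RefSeq start, and in 2.03% of genes. The antioxidant response element core bound by NRF2 (TGACNNNGC or GCNNNGTCA) was found only in PPP1R15A among the 10 genes, at 2 places, against 13.2% of genes. These are matches of letters in a short window and say nothing about binding.

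Genes of feedback and growth control rose less than CHAC1 and ASNS, or not at all. PPP1R15A encodes GADD34, which restores translation by directing the removal of the phosphate from eIF2. It had 1459, 1405 and 1433 normalized counts in KYSE70 and 2520.5, 2507 and 2201 in NRF2null-KYSE70, so the lines were clearly apart. The mean rose 1.68-fold (log2FC 0.75, SE 0.067, limma adjusted p = 9.94e-07). SESN2, a leucine sensor that restrains mTORC1, had 1531, 1545 and 1529 normalized counts in KYSE70 and 1885, 1892 and 1975 in NRF2null-KYSE70. Its KYSE70 libraries differed by less than those of any other of the 10 genes in relative terms, with a coefficient of variation of 0.57%. The rise was 1.25-fold (log2FC 0.32, SE 0.059, limma adjusted p = 0.000455). DDIT4, also named REDD1, another brake on mTORC1 that responds to hypoxia as well, had 25405, 28031 and 28508 normalized counts in KYSE70 and 29833, 31583 and 34203 in NRF2null-KYSE70. The lines did not overlap, but the gap was smaller than the range within either line. The mean rose 1.17-fold (log2FC 0.22, SE 0.060, limma adjusted p = 0.00678), a call lost with quantile normalization (limma adjusted p = 0.0917), with scaling to equal totals (0.0588), after subtraction of the arm median (0.0689) and without the mean-variance trend in limma (0.061).

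TRIB3, a pseudokinase induced by ATF4 and CHOP that in turn represses them, had 6293, 6057 and 6321 normalized counts in KYSE70 and 6184, 6555 and 6099.5 in NRF2null-KYSE70. The libraries of the lines were intermixed. The log2FC was 0.01, with a 95% interval from -0.093 to 0.118 (limma adjusted p = 0.846), so a change beyond this interval was not detected. TRIB3 lies on 20p (chromosome 20, 362835 to 397559), an arm with a median of -0.77. Its nearest tested protein-coding genes, at most 40 with the same limit on each side, had a median of -0.99. TRIB3 lies close to the chromosome end, so fewer than 40 were available, most of them on the other side. Relative to the arm its log2FC was 0.78 (limma adjusted p = 3.16e-08), and relative to its neighbors it was 1.01 (limma adjusted p = 3.2e-09). These p-values take the subtracted median as fixed and do not measure the spread of the other genes around it. Whether gene dosage differs on 20p was not tested.

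**Figure D2:**
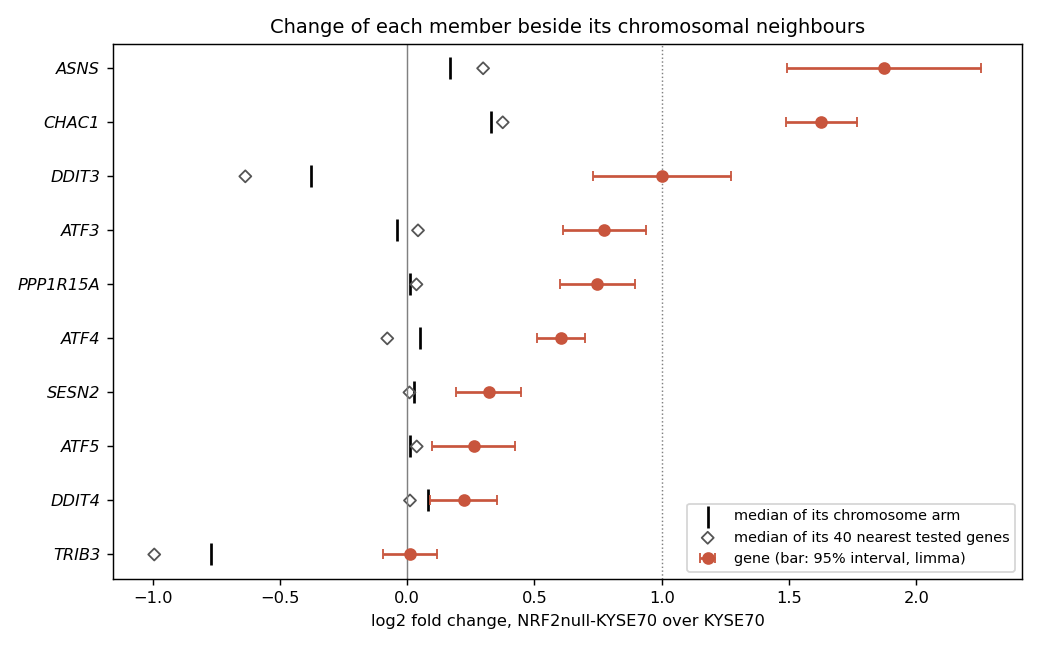
Log2FC of each of the 10 genes, NRF2null-KYSE70 over KYSE70 (horizontal axis), with its 95% interval from limma, beside the median of its chromosome arm (black bar) and of its 40 nearest tested genes (open diamond, fewer genes for TRIB3). The intervals of the 9 genes other than TRIB3 lie above 0, and TRIB3 lies near 0 with a neighbor median of -0.99.

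The change of each gene was set against that of ATF4, and no ratio passed a threshold of 0.05, which this test cannot reach with 3 libraries against 3. On the log2 scale, the ratio to ATF4 was higher in NRF2null-KYSE70 by 1.27 for ASNS, 1.02 for CHAC1 and 0.40 for DDIT3. It was lower by a difference of -0.59 for TRIB3, -0.38 for DDIT4, -0.34 for ATF5 and -0.28 for SESN2. For these 7 genes the ratios of the lines were apart in all libraries, and the exact two-sided permutation p was 0.1, the smallest that 3 libraries against 3 allow (0.129 adjusted over the 9 ratios). For ATF3 and PPP1R15A the ratios overlapped, with differences of 0.17 and 0.14 (exact permutation p = 0.2). Libraries of a line were not equal across the genes. KYSE70 library 3 was the highest of its line for 6 of the 10 genes, and NRF2null-KYSE70 library 1 the lowest of its line for 6.

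Levels were compared between genes per kilobase of merged exons. In KYSE70 DDIT4 was the most abundant, with 12897 normalized counts per kilobase, followed by ATF4 with 10631. TRIB3 came next with 1891, and the other genes lay between 571 for ATF5 and 18.7 for ASNS. The place of ASNS is uncertain, because how reads in its shared exons were counted was not stated. In NRF2null-KYSE70 the order changed at the top and in the middle. ATF4 stood first with 16176 normalized counts per kilobase and DDIT4 second with 15049, although the libraries of this pair overlapped. CHAC1 moved from the fifth place, at 507, to the fourth, at 1563, below TRIB3 at 1908 without overlap. ATF3, PPP1R15A, DDIT3 and ATF5 followed between 745 and 685, where each overlapped the next and the order could not be told. In KYSE70 the neighboring genes SESN2, ATF3 and PPP1R15A likewise overlapped, between 443 and 417.

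**Figure D3:**
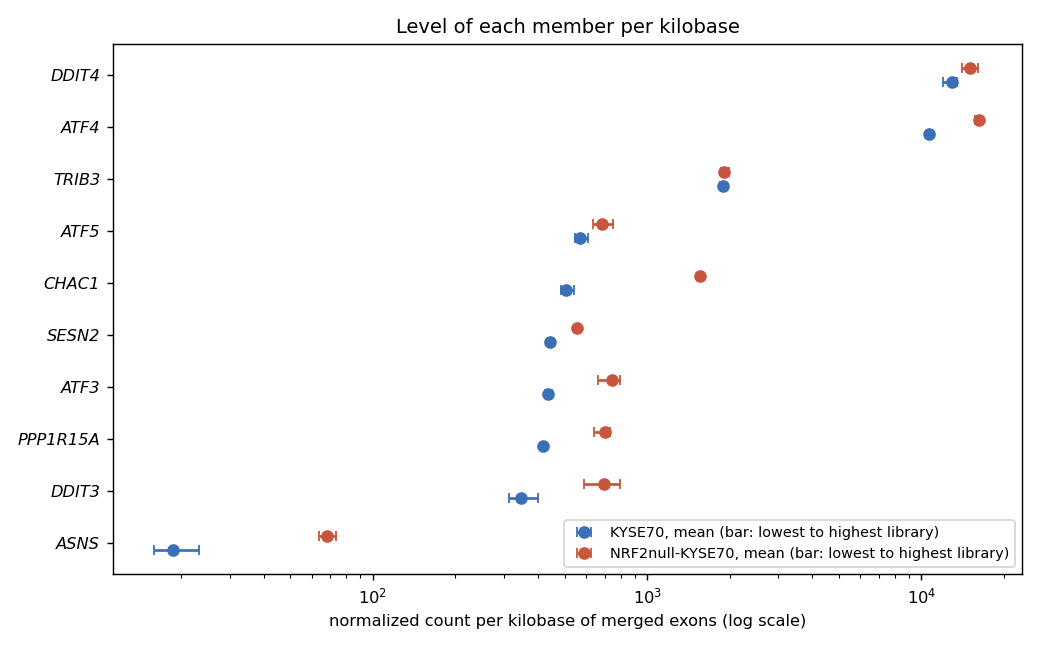
Mean normalized count per kilobase of merged exons (horizontal log axis) of the 10 genes in KYSE70 (blue) and NRF2null-KYSE70 (red), with bars from the lowest to the highest of 3 libraries. DDIT4 and ATF4 lie far to the right of the others, and CHAC1 rises from 507 to 1563. ASNS, whose level is uncertain because of shared exons, lies at 18.7 and 68.2.

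Upstream of ATF4, the kinases changed unevenly. Of 17 genes for eIF2 kinases, eIF2, its exchange factor eIF2B and their regulators, 9 were higher and 3 lower at a limma adjusted p under 0.05, none of them past the fold cut-off, and the median log2FC was 0.15. The background was 29.3% higher and 28.3% lower. EIF2AK4, which encodes GCN2, the sensor of uncharged tRNA, had 8519, 8155 and 7756 normalized counts in KYSE70 and 14917, 14274 and 14203 in NRF2null-KYSE70. This was a 1.78-fold rise (log2FC 0.83, limma adjusted p = 1.91e-08), on the 15q arm with its median of 0.33. EIF2AK3, for the ER kinase PERK, rose 1.27-fold (limma adjusted p = 0.00428). EIF2AK2, for the double-stranded RNA sensor PKR, fell to 8178 ± 727 from 9548 ± 213 (mean ± SD, 3 libraries each, limma adjusted p = 0.006). EIF2AK1, for the heme-regulated kinase, had a log2FC of -0.0026 (limma adjusted p = 0.965), and EIF2S1, for the subunit of eIF2 that is phosphorylated, of 0.014 (limma adjusted p = 0.814). The other lower genes were EIF2B1 and EIF2B4, subunits of eIF2B. EIF2B1 had a log2FC of -0.92, which was -0.54 relative to its arm, 12q, and -0.84 relative to its neighbors. These values are RNA levels and give no measure of kinase activity or of eIF2 phosphorylation.

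Genes that act downstream of ATF4 in amino acid metabolism were mostly higher. Of 19 genes for amino acid synthesis and uptake, 16 were higher and 1 lower, 8 of the higher ones past the fold cut-off, with a median log2FC of 0.76. Over all tested genes the shares were 29.3% higher, 28.3% lower and 7.23% higher past the cut-off, and the counts of the lists that follow stand against the same background. In the serine pathway, PSAT1 rose 3.08-fold, from 20930 ± 913 to 64447 ± 3649 normalized counts (mean ± SD, 3 libraries each), PHGDH, the first enzyme, rose 2.37-fold and MTHFD2, the mitochondrial folate enzyme, rose 2.35-fold. Limma adjusted p-values were 1.03e-10, 1.37e-10 and 2.11e-10. SLC7A5 and SLC3A2, the chains of the LAT1 transporter of large neutral amino acids, rose 2.04-fold and 1.69-fold (limma adjusted p = 2.2e-07 and 4.48e-08). SLC7A11, the cystine transporter that is a target of NRF2 as well as of ATF4, was the gene that fell, with a log2FC of -0.49 (limma adjusted p = 3.33e-05). Its values were 14731, 14884 and 13186 in KYSE70 and 11091, 10040.3 and 9431 in NRF2null-KYSE70, so it went against SLC3A2, its partner chain. The genes that did not pass were SHMT2 and SLC1A5, with log2FC values of -0.062 and 0.10. Larger rises than that of PSAT1, named after their values were seen, were 3.91-fold for CTH, which makes cysteine by transsulfuration, and 5.82-fold for SLC43A1, a neutral amino acid transporter.

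The cytosolic aminoacyl-tRNA synthetases, which charge tRNAs with amino acids, had a wide range of values. Of 20 genes, 11 were higher, against 29.3% of all tested genes, and 6 were lower, a share close to the background of 28.3%. The other 3 did not pass, and the median log2FC was 0.72. The higher genes were AARS1, CARS1, EPRS1, GARS1, IARS1, LARS1, MARS1, SARS1, TARS1, WARS1 and YARS1, with log2FC values from 0.70 for TARS1 to 1.54 for CARS1. The remaining 9 genes lay between -0.54 for NARS1 and 0.040 for KARS1. The gap between 0.040 and 0.70 did not hold after subtraction of arm medians, when QARS1 (0.32), TARS1 (0.58), LARS1 (0.65) and WARS1 (0.68) lay in it. CARS1 rose from 2856 ± 22.8 to 8303 ± 12.2 normalized counts (mean ± SD, 3 libraries each), and GARS1 from 18664.5 ± 466 to 45460.5 ± 2194. NARS1 fell to 9473 ± 310.1 from 13744 ± 489.7, and its 40 nearest tested genes had a median of -0.69, so relative to them its value was 0.15. Relative to its arm, 18q, with a median of 0.026, the value stayed at -0.56. The lower genes other than NARS1 were VARS1, RARS1, QARS1, FARSA and FARSB, with log2FC values from -0.20 to -0.14. QARS1 lies on 3p, an arm with a median of -0.48, and the direction of its value turned to 0.32 relative to the arm and 0.50 relative to its neighbors. FARSA was at 0.0061 relative to its neighbors and at -0.17 relative to its arm.

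Other targets of ATF4 and CHOP followed the same direction. Of 21 listed genes 19 were tested, and 17 were higher and 1 lower, against 29.3% and 28.3% of all tested genes, with a median log2FC of 0.78. GDF15, a stress hormone that reduces appetite, had 367, 360.1 and 423 normalized counts in KYSE70 and 1630.0, 1456 and 1403 in NRF2null-KYSE70, a 3.90-fold rise (limma adjusted p = 3.16e-09). NUPR1, a small stress-response chromatin protein, rose 3.25-fold (limma adjusted p = 2.86e-08), on the 16p arm with its median of -0.49. VLDLR, a lipoprotein receptor, rose 1.72-fold (limma adjusted p = 4.21e-08). FGF21, a metabolic hormone named after its value was seen, had the largest change of all these lists. It had 52.5, 33.6 and 31.6 normalized counts in KYSE70 and 1154, 1305 and 1256 in NRF2null-KYSE70, a 31.6-fold rise (log2FC 4.98, SE 0.184, limma adjusted p = 2.85e-10). TNFRSF10B, the death receptor DR5 and a target of CHOP, was the gene that fell, with a log2FC of -0.20 (limma adjusted p = 0.0193). It lies on 8p, where the arm median was -0.38, and relative to the arm its value turned to 0.18. SQSTM1, which did not pass with a log2FC of -0.030, moved the other way. Its value was -0.15 relative to its arm and -0.14 relative to its neighbors. No gene of the list was lower without KYSE70 library 1 or NRF2null-KYSE70 library 3. STC2 and NIBAN1 were too low to be tested, with STC2 at 9.13 normalized counts or less in every library.

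The bZIP factors that pair with ATF4 or CHOP form dimers that decide which sites are bound. Of their 14 genes 8 were higher, against 29.3% of all tested genes, and 3 lower, against 28.3%, with a median log2FC of 0.51. CEBPG, the usual dimer partner of ATF4, rose 1.82-fold, CEBPB rose 1.58-fold, and JDP2, a repressor related to ATF3, rose 2.74-fold (limma adjusted p = 2.03e-08, 8.45e-05 and 2.64e-09). The largest log2FC values, 2.15 for JUN and 2.30 for FOSL1, belonged to the AP-1 family and were named after their values were seen. The lower genes were BATF3, FOSL2 and MAFG, with log2FC values of -0.82, -0.49 and -0.34.

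Paralogs of the 10 genes share their protein families, and 1 of them, JDP2, is also in the list of other targets. Of 8 tested, 4 were higher, JDP2 included, and 3 lower, against 29.3% and 28.3% of all tested genes, and the median log2FC was 0.041. CHAC2, the constitutive relative of CHAC1, fell from a mean of 1857 normalized counts to 1474 (log2FC -0.34, SE 0.068, limma adjusted p = 0.000988), whereas CHAC1 rose. SESN1 and SESN3 likewise fell, with log2FC values of -0.39 and -0.48 (limma adjusted p = 0.00481 and 6.44e-06), whereas SESN2 rose. TRIB2 rose 2.94-fold and TRIB1 1.36-fold (limma adjusted p = 1.44e-09 and 0.00102), beside TRIB3 with its fold of 1.01. PPP1R15B, the constitutive counterpart of PPP1R15A, rose 1.21-fold (limma adjusted p = 0.000252). DDIT4L had no read in any library.

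Genes of the IRE1 and ATF6 arms of the unfolded protein response, which act in the ER beside the PERK branch, were also mostly higher. Of 20 genes 17 were higher and 1, CRELD2, was lower, with a median log2FC of 0.59, and 2 passed the fold cut-off, HYOU1 and SEL1L. All tested genes were higher in 29.3%, lower in 28.3% and higher past the cut-off in 7.23% of cases, the last being close to 2 of 20. The call of CRELD2 (limma adjusted p = 0.0441) was lost in 7 of 19 alternatives, among them those without KYSE70 library 1, 2 or 3 or NRF2null-KYSE70 library 2. HSPA5, the main ER chaperone BiP, had 59693, 55599 and 54314 normalized counts in KYSE70 and 119461, 110993 and 106316 in NRF2null-KYSE70, a 1.99-fold rise (limma adjusted p = 1.63e-08). DNAJB9, a target of the spliced form of XBP1, rose 1.99-fold, XBP1 itself 1.68-fold, and ERN1, which encodes IRE1, 1.62-fold (limma adjusted p = 1.52e-07, 7.12e-08 and 0.000827). Splicing of XBP1 was not measured. Some genes stand in several of these lists: HERPUD1 in this list and that of other targets, CEBPB, CEBPG and JDP2 in those of other targets and partners, JDP2 also among the paralogs, and PPP1R15B in those of paralogs and eIF2 genes.

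**Figure D4:**
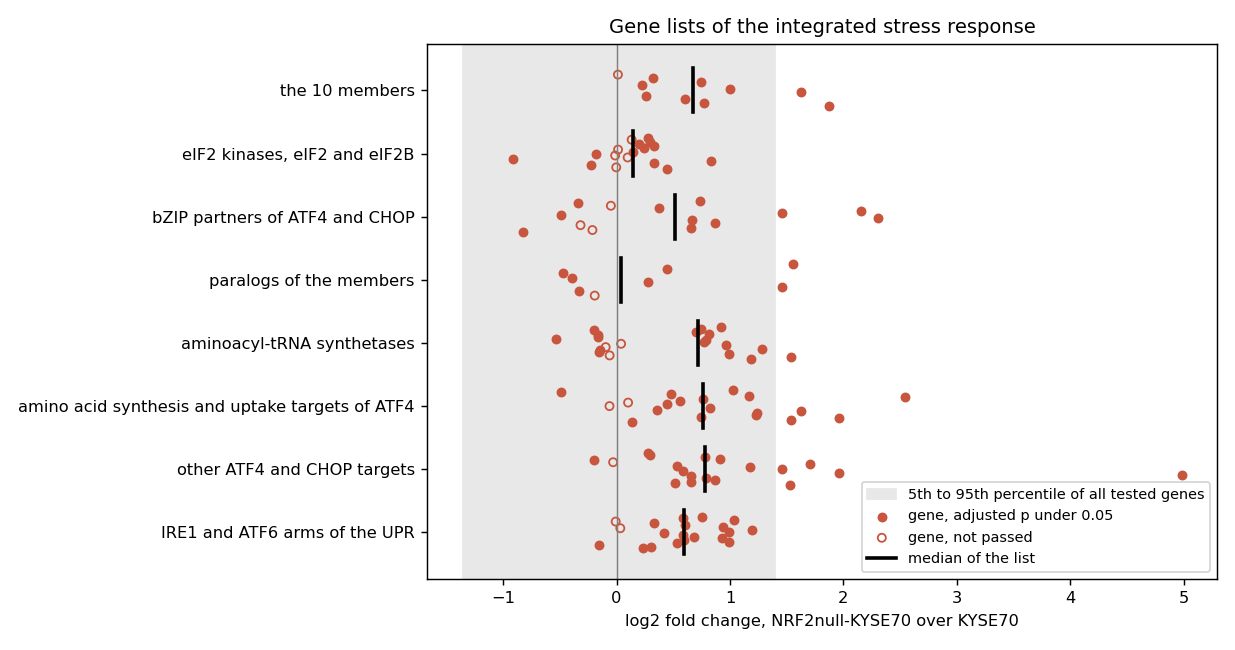
Log2FC, NRF2null-KYSE70 over KYSE70 (horizontal axis), of each tested gene in the list of 10 genes and 7 related lists. Filled points had a limma adjusted p under 0.05, open points did not, black bars are list medians, and the gray band holds the 5th to 95th percentile of all tested genes. Medians lie between 0.59 and 0.78 for the 10 genes, the synthetases, the target lists and the ER genes, and at 0.041 for the paralogs.

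The genes whose pattern over the 6 libraries was most like that of ATF4 were EIF3D, SNUPN, AAGAB, CEP70 and PPIB, with Euclidean distances of 0.026 to 0.051 between the centered log2 values, among 11996 genes with a mean of at least 100. Their log2FC values were 0.58 to 0.63, and values near that of ATF4 followed from this choice, because the distance includes the difference between the lines. SNUPN, AAGAB and PPIB lie on 15q, with its median log2FC of 0.33. EIF3D lies on 22q as ATF4 does (median 0.051), and CEP70 lies on 3q (median 0.28).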

How the data were processed

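Per the submitters' processing notes, reads were mapped to hg38 by STAR (2.6.90c), assigned to genes by featureCounts (1.5.1) and scaled with DESeq2. The methods name a RefSeq annotation, and the table lists Ensembl identifiers. The values the authors deposited are a signal in normalized counts, reads divided by 1 size factor per library. Strand setting and treatment of reads shared between genes were not stated. Whole reads were recovered, since 100% of values in each library were whole multiples (within 0.1) of the value of 1 read. Columns name the line but not the replicate, and library numbers follow table order.

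Differences were tested with limma (3.58.1, R 4.3.3, lmFit and eBayes with trend) on log2(normalized count + 1), which understates changes of low genes, over the 15994 genes with a mean of at least 10, all 10 members included. P-values are two-sided and adjusted by the Benjamini-Hochberg method. They measure the spread between libraries, which may be technical. DESeq2 (1.42.0) and edgeR (4.0.16) were run on recovered reads as alternatives. The code was tested on simulated data. Exons and positions came from GENCODE v44 (hg38), in which 58472 of 58884 identifiers were found, and arms are named from approximate centromere positions. Promoters came from RefSeq (GRCh38.p14), where all 10 members matched. All 150 listed symbols were found, 19 by an older symbol.

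The members, lists and tests were chosen with earlier results of these data known. Named genes were the members, genes fixed by role in each list, NFE2L2 and the 5 most like ATF4. Other genes were named after their values were seen. ASNS and SLC7A11 were matched to the study's gene set by name only.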

Additional observations from a re-analysis of the deposited data

How the results depend on the processing

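Of the 10 members, ATF4, ATF3, DDIT3, ASNS, SESN2, CHAC1 and PPP1R15A kept their direction and passed the 0.05 threshold in all 19 alternatives, with ATF4 between 0.51 and 0.68 on the log2 scale. NFE2L2 did so too, from -0.80 to -0.67. The number of members higher was 8 to 10, and the number also past the fold cut-off 2 to 4. Without that cut-off 9 members and 9206 of all genes were called, and a filter at a mean of 50 left 1511 called genes of 2344. With no filter 16.9% of tested genes were higher. DDIT4 missed the threshold under quantile normalization, equal totals, arm-centring and limma without the trend. The value of TRIB3 was -0.060 under quantile normalization, -0.063 with equal totals, and between -0.019 and 0.033 with a library left out (-0.0069 without KYSE70 library 2), none past the threshold, whereas it was higher after arm-centring and neighbor-centring.

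With equal totals the median over all tested genes was -0.082, against -0.0070. List medians then were 0.60 for members, 0.074 for eIF2 genes, 0.44 for bZIP partners, -0.034 for paralogs, 0.65 for synthetases, 0.69 for amino acid genes, 0.70 for other targets and 0.51 for ER genes. Under quantile normalization they were 0.61 for members, 0.095 for eIF2 genes, 0.61 for synthetases, 0.69 for amino acid genes and 0.70 for other targets. Arm-centring gave 0.76 for members, 0.10 for eIF2 genes, -0.034 for paralogs, 0.62 for synthetases, 0.80 for amino acid genes and 0.85 for other targets. Neighbor-centring gave -0.12 for paralogs, 0.48 for synthetases, 0.89 for amino acid genes and 0.91 for other targets. The count of lower genes, 1 in each case, became 2 for amino acid genes and for other targets under quantile normalization and equal totals, and 0 for ER genes without a filter, without the trend and with neighbor-centring. Leaving out each library gave medians from 0.74 to 0.80 for other targets and from 0.43 to 0.54 for bZIP partners, and 0 to 1 lower genes among other targets and ER genes. The looser motif core was found in 3 members against 1. The cause of these shifts was not tested. No paired analysis was possible because the columns carry no replicate numbers.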
